A study of Caenorhabditis elegans with 2 samples.

Results

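The centriole and centrosome genes described here are 9 listed Caenorhabditis elegans genes, taken by name from the annotation: zyg-1, sas-5, sas-6, sas-4, spd-2, spd-5, tbg-1, gip-1 and gip-2. All 9 were found, out of 19973 protein-coding genes on the 6 chromosomes of build WBcel235 (ce11). What was measured is the binding of LIN-54 around their 5′ ends, by chromatin immunoprecipitation and sequencing (ChIP-seq) with an antibody against GFP. There was 1 group, made up of 2 biological replicates of whole young adults of strain OP743, aged 65 hours and of mixed sex. Both replicates carried the unc-119 allele tm4063 and the transgene wgIs743, a fosmid that holds lin-54 fused to TY1, EGFP and 3xFLAG tags together with a working copy of unc-119. The tagged protein comes from an added transgene, so its amount may differ from that of the native protein. Cohorts were synchronised by bleaching and starvation at the first larval stage, and chromatin was sheared by sonication to between 200 and 800 bp. Whole animals were used, so a peak cannot be assigned to a tissue. The design holds no untagged, mutant or other-stage group, so it allows a description of where LIN-54 was bound and how alike the replicates were, with no contrast to test.

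Centrioles in C. elegans are built in an ordered pathway. SPD-2 brings the kinase ZYG-1 to the parent centriole, SAS-5 and SAS-6 then form the core of the new centriole, and SAS-4 adds its microtubule wall. SPD-2 and SPD-5 also build the pericentriolar material, the scaffold around the centrioles, where the γ-tubulin protein TBG-1 and its partners GIP-1 and GIP-2 nucleate microtubules. In an adult worm the dividing cells are found mainly in the germ line and in the embryos that hermaphrodites carry. LIN-54 is the DNA-binding member of DREAM, a complex that also contains the Rb family protein LIN-35 and the E2F and DP partners EFL-1 and DPL-1, and that is best known as a repressor of cell cycle genes. LIN-54 recognises the cell cycle genes homology region (CHR), and the E2F and DP pair recognises E2F elements.

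The summit sequences of 5 of the genes with a peak are printed here to show what the elements look like in place, with and without a match. Those of spd-2 and spd-5 are described by their elements alone. Each sequence is the 101 bp centred on the peak summit, read 5′ to 3′ on the strand of the named gene from the WBcel235 reference genome. Capitals mark CHR elements (TTCGAA or TTTGAA) and E2F elements (TTCCCGC or TTCGCGC or TTGCCGC or TTGGCGC) found on either strand, so a match on the other strand appears as its reverse complement. The windows are chrII:5649592-5649692 on the plus strand for zyg-1, chrV:11610620-11610720 on the plus strand for sas-5, chrIV:13788780-13788880 on the minus strand for sas-6, chrIII:8319274-8319374 on the minus strand for sas-4 and chrIII:9629962-9630062 on the minus strand for tbg-1.
zyg-1: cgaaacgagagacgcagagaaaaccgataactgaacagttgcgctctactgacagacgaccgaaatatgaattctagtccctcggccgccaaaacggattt
sas-5: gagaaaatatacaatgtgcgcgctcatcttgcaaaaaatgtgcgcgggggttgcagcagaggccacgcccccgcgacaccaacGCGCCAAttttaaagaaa
sas-6: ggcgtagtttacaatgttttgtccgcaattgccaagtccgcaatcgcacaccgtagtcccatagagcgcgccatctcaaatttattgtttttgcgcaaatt
sas-4: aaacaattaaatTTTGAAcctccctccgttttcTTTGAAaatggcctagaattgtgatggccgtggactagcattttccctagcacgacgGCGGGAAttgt
tbg-1: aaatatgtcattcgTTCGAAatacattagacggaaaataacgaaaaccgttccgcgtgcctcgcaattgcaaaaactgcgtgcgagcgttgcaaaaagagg
The sas-4 window holds elements of each kind, the sas-5 window an E2F element and the tbg-1 window a CHR element. The zyg-1 and sas-6 windows hold neither.

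LIN-54 peaks lay in the promoter windows of 7 of the 9 genes: zyg-1, sas-5, sas-6, sas-4, spd-2, spd-5 and tbg-1. The γ-tubulin complex genes gip-1 and gip-2 had none. A promoter window is the stretch from 1000 bp before to 300 bp after any annotated 5′ end of a gene, and a peak is a region of the authors' optimal list, which passed their irreproducible discovery rate (IDR) procedure. That list held 3449 peaks. By the same rule 14.3% of all protein-coding genes carried a peak, while the 7 of 9 make 77.8%. Since the genes were chosen with earlier results of these data known, the shares are set side by side with no test.

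The relaxed lists, 30000 regions each for the pooled replicates and for each replicate, include regions far weaker than any IDR peak. In the pooled list all 9 genes had a summit in the promoter window, against 38.1% of protein-coding genes. In replicate 1 the count was 8 of 9, against 40.2%, and in replicate 2 it was 9 of 9, against 39.9%. The gene that lacked a region in replicate 1 was gip-1. The regions at gip-1 and gip-2 ranked between 17444 and 29022 of 30000 in the lists that held them.

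Signal values, which the authors deposited for each region, rank the regions of a list, and how they were calculated was not given in the sources used here. Among the 7 genes with a peak, the pooled signal had a median of 426.5 and lay between 288.1 and 689.8. Over the 2861 protein-coding genes with a promoter peak, the strongest peak per gene had a median of 221.9, with quartiles of 137.9 and 389.7. Hence each of the 7 lay above the median of bound genes, and sas-4, sas-5, sas-6 and spd-5 lay above the upper quartile. By rank among the 3449 IDR peaks they fell between 213 and 900, within the strongest 26.1%. The remaining members, gip-1 and gip-2, stood near the bottom of the pooled list, whose lowest signal was 21.51.

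**Figure D1:**
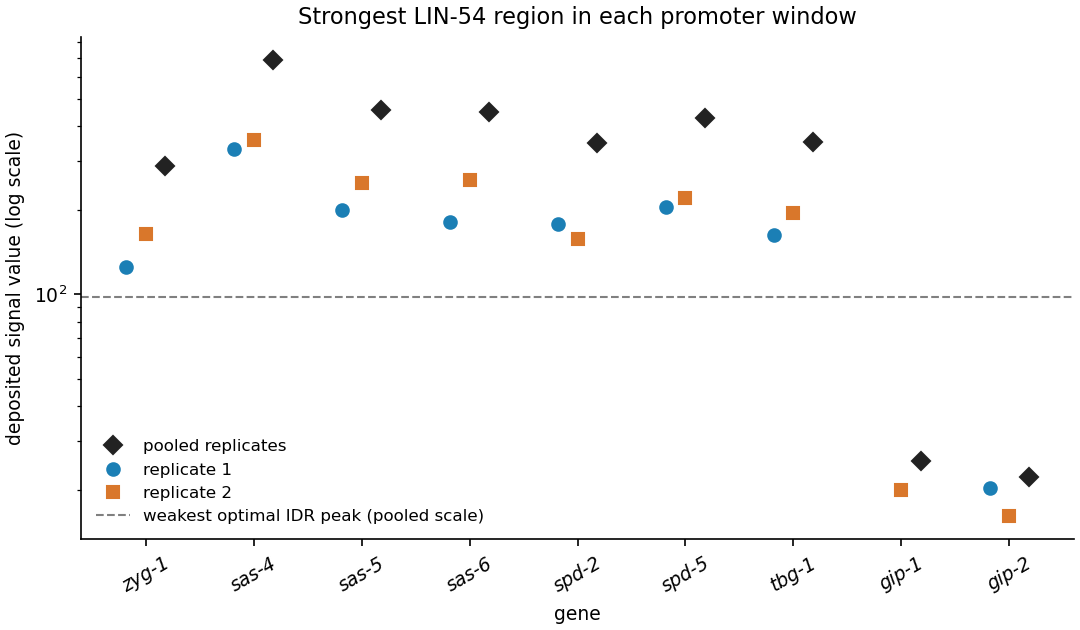
Deposited signal value (log scale) of the strongest LIN-54 region in the promoter window of each of the 9 genes, with diamonds for the pooled replicates, circles for replicate 1 and squares for replicate 2. The dashed line marks the weakest IDR peak, 98.16 on the pooled scale, and gip-1 and gip-2 lie below it, at 25.39 and 22.31 in the pooled list.

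Among the genes for centriole assembly, zyg-1 (WBGene00006988, chromosome II, 5649748 to 5654422, plus strand) encodes the kinase that starts duplication. By pooled signal it had the weakest of the 7 peaks. Its region was narrow, 156 bp from 5649567 to 5649722. The signal at zyg-1 was 125.7 in replicate 1, 164.9 in replicate 2 and 288.1 in the pooled list, where it ranked 900. The summit stood 106 bp upstream of the 5′ end, inside an exon of the non-coding RNA gene F59E12.14. The replicate summits were 111 and 109 bp upstream, so the position was nearly the same in each.

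SAS-5 binds SAS-6 and carries it to the forming centriole. The sas-5 gene (WBGene00009385, chromosome V, 11610737 to 11612596, plus strand) had a signal of 200.3 in replicate 1, 249.2 in replicate 2 and 455.1 in the pooled list, where it ranked 454. Its peak covered 11610560 to 11610777, between genes, with the summit 67 bp upstream of the nearest of 3 annotated 5′ ends. In each replicate the summit lay within 100 bp of that 5′ end, at 73 and 55 bp upstream.

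SAS-6 is the coiled-coil protein at the core of the new centriole. At sas-6 (WBGene00012888, chromosome IV, 13786945 to 13788731, minus strand) the signal was 180.9 in replicate 1, 255.4 in replicate 2 and 448.1 in the pooled list, where it ranked 461. The peak ran from 13788732 to 13788943 and began at the base next to the gene. Its summit was 99 bp upstream of the sas-6 5′ end, and in each replicate it was 97 bp upstream. The ratio of replicate 2 over replicate 1 at sas-6, 1.41, was the highest of the 7.

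SAS-4, which is needed for the centriole wall, belongs to the gene with the strongest peak of the set. For sas-4 (WBGene00004726, chromosome III, 8314349 to 8318588, minus strand) the signal was 329.6 in replicate 1, 355.2 in replicate 2 and 689.8 in the pooled list, where it ranked 213. The lower of the sas-4 replicate values was above every replicate value of the other 8 genes, the highest of which was 255.4 at sas-6. The peak, at 8319201 to 8319455, was not next to sas-4 itself. Its summit lay 736 bp upstream of the sas-4 5′ end and 64 bp upstream of F10E9.11, a gene on the same strand that ends 89 bp before sas-4 begins. A further pooled region 3 bp upstream of the sas-4 5′ end had a signal of 39.02, close to the median of the pooled list, 37.68, and was no IDR peak.

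SPD-2 links centriole assembly to the pericentriolar material. The spd-2 gene (WBGene00004953, chromosome I, 8966985 to 8970081, minus strand) had a signal of 178.6 in replicate 1, 157.7 in replicate 2 and 346.6 in the pooled list, where it ranked 694. It was the only gene of the 7 with the higher signal in replicate 1. The peak at 8970070 to 8970247 was intergenic at its summit, 76 bp upstream of the 5′ end, with replicate summits 76 and 77 bp upstream.

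SPD-5, the main scaffold protein of the pericentriolar material, differed in where its gene was bound. At spd-5 (WBGene00004955, chromosome I, 5171275 to 5176654, minus strand) the signal was 204.5 in replicate 1, 220.7 in replicate 2 and 426.5 in the pooled list, where it ranked 497. The summit of the peak, which spans 5176295 to 5176557, lay 220 bp downstream of the first annotated 5′ end, in an intron of spd-5. Replicate summits were 230 and 222 bp downstream. The spd-5 summit was the only one of the 7 inside its own gene. Other pooled regions in the spd-5 window reached signals of 53.33 and 52.37, below any IDR peak.

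In the γ-tubulin complex, tbg-1 (WBGene00006540, chromosome III, 9626536 to 9629154, minus strand), which encodes γ-tubulin, had a peak and its partners gip-1 and gip-2 had none. The tbg-1 signal was 162.8 in replicate 1, 195.7 in replicate 2 and 349.2 in the pooled list, where it ranked 686. As at sas-4, the peak (9629875 to 9630116) was far from the gene: its summit stood 858 bp upstream of tbg-1 but 127 bp upstream of rpac-19, a gene for an RNA polymerase subunit on the same strand that ends 91 bp before tbg-1. A second pooled region, 42 bp inside tbg-1, had a signal of 72.17 and rank 5161.

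For gip-1 (WBGene00001589, chromosome III, 2347591 to 2362056, plus strand) the strongest pooled region had a signal of 25.39 and ranked 25416 of 30000. No region was listed in replicate 1, and the region in replicate 2 had a signal of 19.94. The same-strand gene upstream, phf-5, which ends 261 bp before gip-1, had no IDR peak either, and its pooled region had a signal of 22.57.

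For gip-2 (WBGene00044008, chromosome I, 9228163 to 9232096, plus strand) the values were 20.4 in replicate 1, 16.1 in replicate 2 and 22.31 in the pooled list, rank 29022. The replicate summits were 873 bp upstream and 6 bp downstream of the gip-2 5′ end, so the lists did not share a position. An IDR peak with a pooled signal of 273.8, rank 974, lay 1500 bp upstream of gip-2, outside the window, at 9226589 to 9226727. That peak was in the windows of the divergent genes lipt-1, a lipoyltransferase gene that overlaps the start of gip-2 by 22 bp on the same strand, and aspm-1, which encodes a spindle pole protein. Its summit was 242 bp upstream of lipt-1 and 273 bp upstream of aspm-1, and its signal was 123.9 in replicate 1 and 143.0 in replicate 2.

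**Figure D2:**
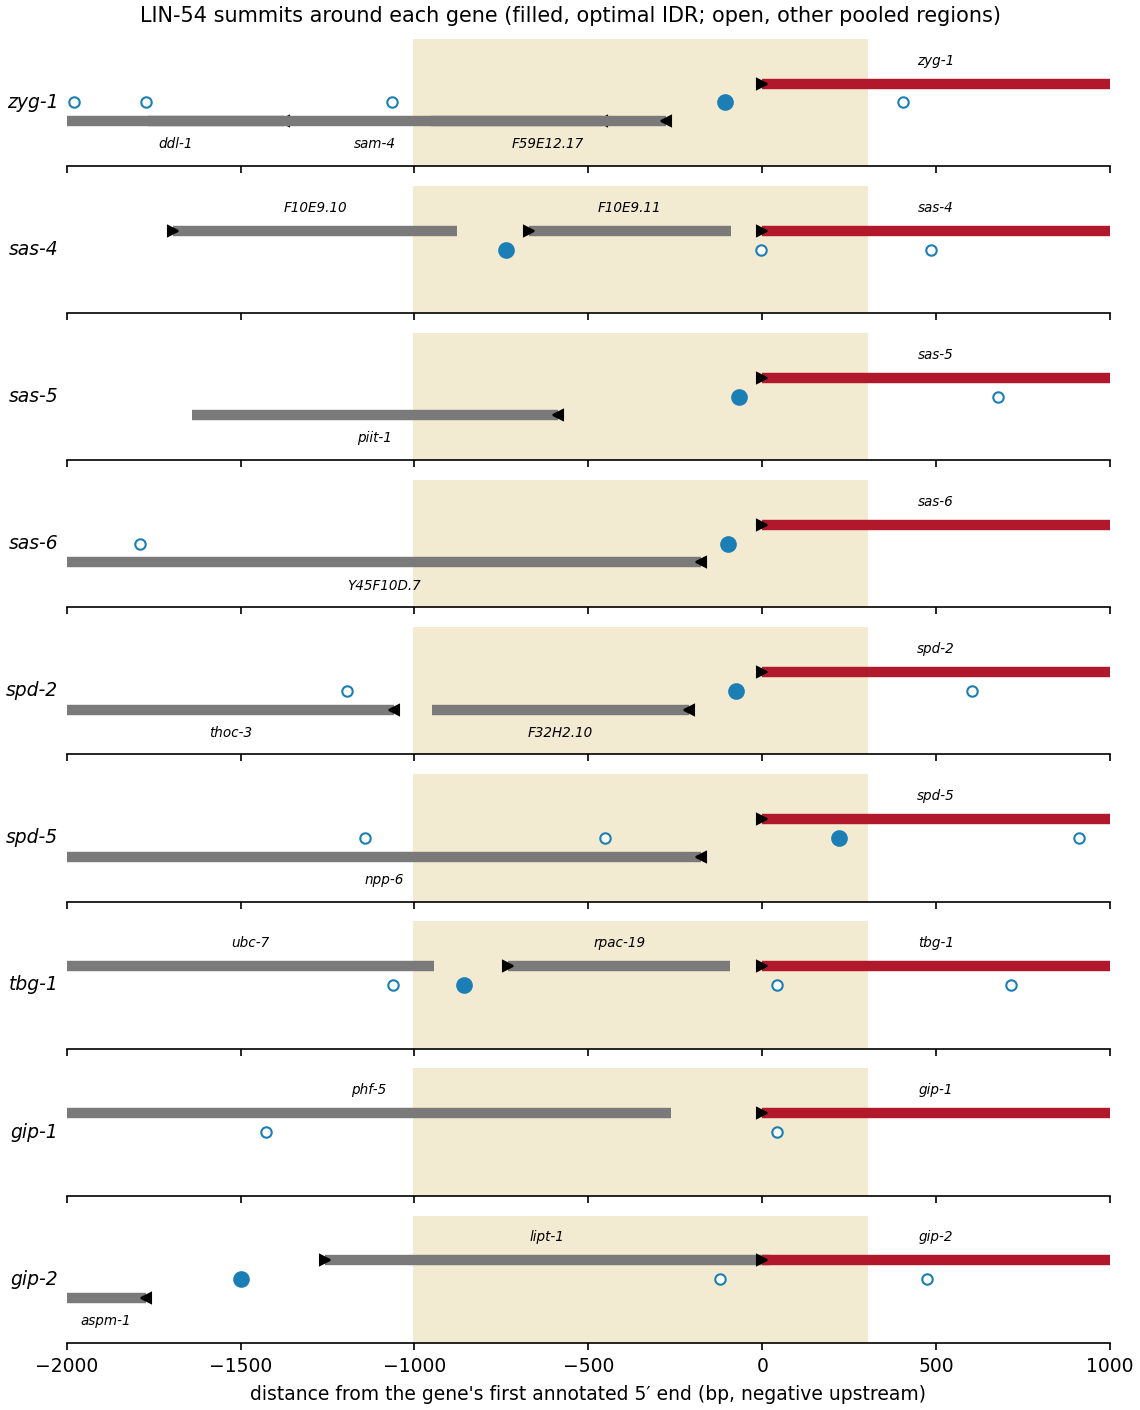
Summits of LIN-54 regions around the first annotated 5′ end of each of the 9 genes, in bp along the gene, with filled circles for IDR peaks, open circles for other pooled regions, red bars for the named gene, grey bars for neighbouring protein-coding genes (same strand above, opposite strand below) and arrowheads at their 5′ ends. The shaded band runs from 1000 bp upstream to 300 bp downstream, and the filled circles at sas-4 and tbg-1 stand before the upstream gene of the same strand, while that at gip-2 lies outside the band.

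Each of the 7 peaks also lay in the promoter window of at least 1 other protein-coding gene. This was so for 802 of the 2283 IDR peaks in promoter windows, or 35.1%. That share counts each peak once, while the 7 were reached through genes, and a shared peak is reached through several genes. The shares are therefore unlike in measure, and no difference is read from them. Of the core kinetochore genes with a peak, described below, all but mis-12 also shared theirs with another gene. At zyg-1 the others were F59E12.17, 172 bp away, and sam-4, 356 bp away. At sas-5 it was piit-1, 521 bp away, and at spd-5 it was the nucleoporin gene npp-6, 395 bp away. At spd-2 they were F32H2.10, 134 bp away, and thoc-3, a gene for an mRNA export factor, 982 bp away. At sas-6 the divergent gene Y45F10D.7 was nearer to the summit, 77 bp, than sas-6 itself. Position alone therefore does not say which of the genes a peak belongs to.

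Counted only for the gene with the nearest 5′ end, 4 of the 9 genes kept a peak, namely zyg-1, sas-5, spd-2 and spd-5, against 10.6% of protein-coding genes. With a narrower window of 500 bp before to 100 bp after a 5′ end, 4 of the 9 kept it as well, namely zyg-1, sas-5, sas-6 and spd-2, against 11.5%. The peaks assigned to sas-4 and tbg-1 counted under neither rule. The 7 peaks were close to some 5′ end in any case: the median distance from the summit to the nearest 5′ end of any protein-coding gene was 77 bp, against 191 bp over IDR peaks in promoter windows. Their median width was 218 bp, against 336 bp. Narrow peaks were not particular to the 7. Of the genes in the lists below, ndc-80 and kbp-3, with signals of 328.6 and 334.8, had peaks narrower than 218 bp. Weaker peaks, such as those of tac-1, mis-12 and him-10 with signals of 103.3, 113.9 and 188.3, were each 336 bp wide. Neither the distance nor the width was matched for signal, and no test was made of either.

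At sas-4 and tbg-1 a gene on the same strand ends within 100 bp upstream, and at gip-2 the same-strand gene lipt-1 ends inside gip-2, an overlap of 22 bp. Genes with such a close or overlapping upstream gene were grouped after the positions had been seen. At each of these 3 genes the upstream gene had an IDR peak in its own window, against 381 of 1267 such pairs in the genome, or 30.1%. The downstream gene had a peak in its own window at sas-4 and tbg-1 and not at gip-2, so at 2 of the 3, against 159 of 1267, or 12.5%. C. elegans transcribes many closely spaced genes of a strand together as operons, but operon membership was not used here.

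Each of the 7 peaks was listed in both replicates, as were 3415 of all 3449 IDR peaks, so this is no trait of the 7. The ratio of signal in replicate 2 over replicate 1 was 1.31 at zyg-1, 1.24 at sas-5, 1.41 at sas-6, 1.08 at sas-4, 0.883 at spd-2, 1.08 at spd-5 and 1.2 at tbg-1. Over the 3415 IDR peaks found in each of the replicate lists the median ratio was 1.03, with quartiles of 0.845 and 1.23, so zyg-1, sas-5 and sas-6 lay just above the upper quartile and the others within the quartiles. The replicate summits were 2 bp apart at zyg-1, 18 at sas-5, 0 at sas-6, 33 at sas-4, 1 at spd-2, 8 at spd-5 and 43 at tbg-1. Over all those IDR peaks the median gap was 18 bp and the upper quartile 40 bp. The widest gaps were thus at tbg-1 and sas-4, where the summit was also farthest from the member gene.

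Set by their replicate values, the order of the bound genes was clear at the top and only in part below it. The sas-4 values (329.6 and 355.2) did not overlap with those of any other gene. Replicate values of sas-5, sas-6 and spd-5 overlapped each other, between 180.9 and 255.4, and could not be ordered. The zyg-1 values of 125.7 and 164.9 and the spd-2 values of 178.6 and 157.7 lay below both values of sas-5, sas-6 and spd-5. Across the replicates the zyg-1 values overlapped with those of spd-2 and tbg-1. Within each replicate, zyg-1 was below tbg-1, at 125.7 against 162.8 in replicate 1 and 164.9 against 195.7 in replicate 2. The tbg-1 value was below those of sas-5, sas-6 and spd-5 in each replicate. The order of spd-2 against zyg-1 and tbg-1 changed between the replicates. With 2 replicates and unknown read depth, finer differences were not detectable.

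**Figure D3:**
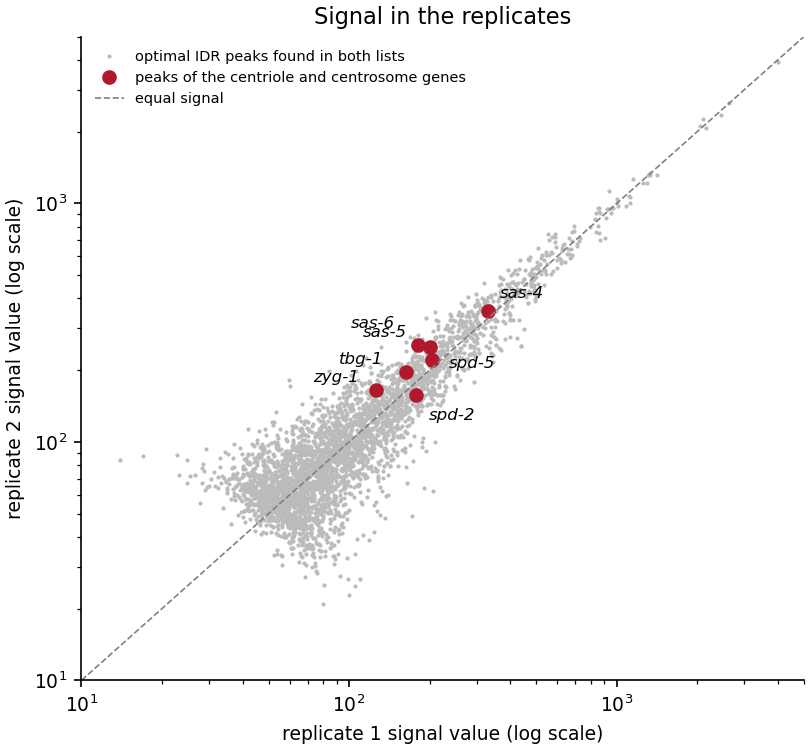
Deposited signal in replicate 2 against replicate 1 (log scales) for the IDR peaks found in each of the replicate lists, with the peaks of the 7 bound centriole and centrosome genes in red and a dashed line of equal signal. The red points sit in the upper part of the cloud and close to the line, with sas-4 the highest in either replicate and spd-2 alone below the line.

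Elements under the summits were counted on both strands, and as lying wholly within 50 bp of the summit. A CHR or E2F element was found at 4 of the 7 peaks (57.1%): sas-4, sas-5, spd-2 and tbg-1. The same was true of 46.7% of IDR peaks in promoter windows, 41.2% of all IDR peaks and 30.2% of the 26151 pooled regions that overlapped no IDR peak. Taken alone, E2F elements were at 3 of the 7 peaks (42.9%), against 20.7%, 17.2% and 5.81% of those sets. CHR elements were at 2 of the 7 (28.6%), against 37.7%, 33.4% and 26.3%. With 7 peaks, a single peak more or less moves these shares by more than the gap for CHR. The gap for E2F is wider than that step, but it rests on 3 peaks and changed with the distance, as given next. No difference is read from either. Within 25 bp, E2F elements were at 1 of the 7 peaks (14.3%), against 11.6% of IDR peaks in promoter windows. Within 100 bp they were at 3 of the 7 (42.9%), against 25.5%. CHR elements were then at 5 of the 7 (71.4%), against 58.9%. The size of the E2F gap and the direction of the CHR gap thus depended on the distance chosen.

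In the sequences printed above, the sas-4 peak stood out by holding 3 elements. Its CHR elements, both TTTGAA, were centred 14.5 and 35.5 bp from the summit on the side away from sas-4, and its E2F element, TTCCCGC on the other strand, 43 bp from the summit on the side of the gene. The sas-5 E2F element, TTGGCGC on the other strand, was centred 36 bp from the summit towards the gene. At tbg-1 the CHR element TTCGAA, which reads the same on either strand, was centred 33.5 bp from the summit away from the gene. The spd-2 peak had a TTGGCGC element centred 7 bp from its summit, the closest of all. The sas-4 and tbg-1 elements sat before F10E9.11 and rpac-19, the genes next to those peaks.

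Of the peaks with no element within 50 bp, zyg-1 had CHR elements just beyond, centred 60.5 bp before and 53.5 bp after the summit, and spd-5 had them 54.5 and 60.5 bp before it. At sas-6 the nearest were a CHR element at 134.5 bp and an E2F element at 166 bp, each away from the gene. Within 100 bp the count was 6 of 7, against 65.9% of IDR peaks in promoter windows, and sas-6 was the exception. A match of letters does not show that a protein was bound there, and the absence of these letters does not show the reverse.

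**Figure D4:**
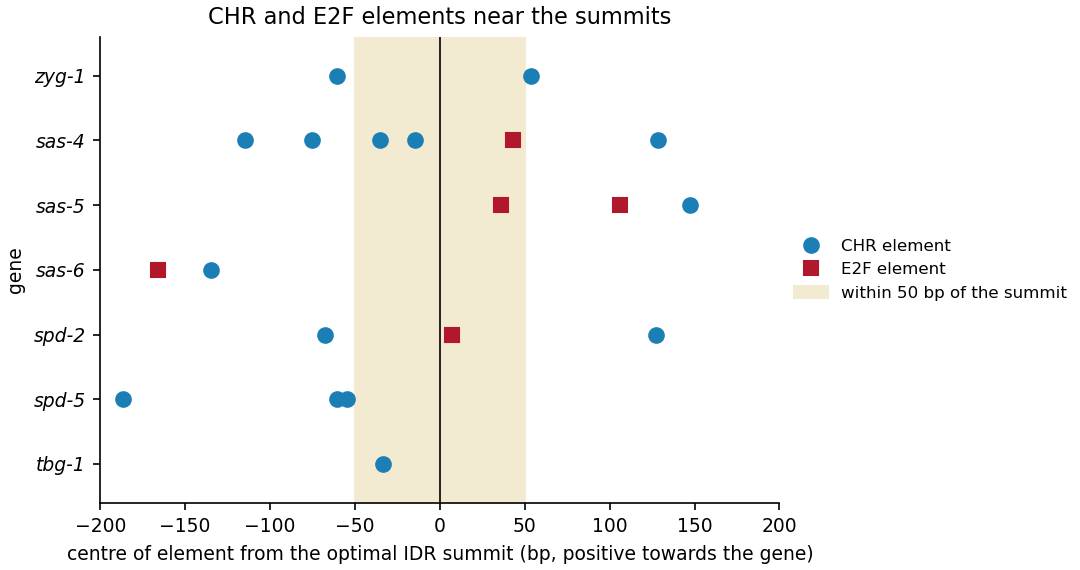
Positions of CHR elements (circles) and E2F elements (squares) relative to the IDR summit at the 7 bound genes, in bp, positive towards the gene. The shaded band marks the 50 bp on each side of the summit, and sas-4, sas-5, spd-2 and tbg-1 have a symbol in it.

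The genes nearest to each member in pooled promoter signal came from many pathways, and nothing is read from their nearness. Next above zyg-1 was lin-36, a gene that works with DREAM in the control of vulval fates, at 288.2, and next below was lep-2 at 288.1. On either side of sas-4 were thoc-5, an mRNA export gene, at 691.7, and the pair mtg-1 and snf-6 at 686.2. The sas-5 value lay between ccar-1 at 455.3 and the pair Y71G12A.4 and trpp-10 at 453.0.

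The sas-6 value lay between the pair rars-1 and rpb-8, which encode an arginyl-tRNA synthetase and an RNA polymerase II subunit, at 450.2, and the pair B0361.11 and spot-1 at 447.0. For spd-2 the neighbours were W04C9.2 and W04C9.6 at 346.8 and daf-15, the worm Raptor gene, at 345.8. For tbg-1 they were the ribosomal protein gene rpl-6 at 349.5 and the thymidylate synthase gene tyms-1 at 348.9. Next above spd-5 came another centrosome gene, rsa-2, at 426.9 and rank 496, and next below were C08F8.9 and cpt-2 at 426.4. The measure here is the pooled signal of the 2 replicates in a single stage, so nearness means a like signal only.

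Peaks also lay in the promoter windows of other centrosome genes. Several of these, such as those at hyls-1 and efl-1, were in the window of another gene as well. Of 12 further centriole and pericentriolar genes, 9 had a promoter peak, against the 14.3% of protein-coding genes, with a median signal of 277.5 between 103.3 and 980.4. The strongest was hyls-1, which encodes a centriole protein needed for cilia, with 497.9 in replicate 1, 489.6 in replicate 2 and 980.4 in the pooled list, where it ranked 106 and had its summit 70 bp upstream. The hyls-1 value was above that of each of the 9 genes. After it came plk-1, the Polo-like kinase gene, at 433.6, rsa-2, which ties a phosphatase to the centrosome, at 426.9, its partner rsa-1 at 300.9 and pcmd-1, a gene for tethering the pericentriolar material, at 277.5. The genes mzt-1, sas-7, zyg-9 and tac-1 had weaker peaks, down to 103.3 at tac-1. No peak lay at sas-1, which had no region in any list, at air-1, the Aurora A kinase gene, with a pooled signal of 30.64, or at zyg-12, which attaches centrosomes to the nucleus, with 72.67.

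Among 13 genes that regulate centriole duplication, 7 (53.8%) had a promoter peak, against the 14.3% of protein-coding genes. Their median signal was 276.0, between 108.2 and 976.0. The strongest peak, at efl-1, the E2F gene whose product is a DREAM subunit, had a signal of 976.0 and rank 108. Next were szy-20 at 625.5 and atx-2 at 562.7, which encode RNA-binding proteins that limit ZYG-1, then the ubiquitin ligase gene lin-23 at 276.0, with its summit 937 bp upstream, and the phosphatase scaffold gene paa-1 at 179.2. The other 2 were dpl-1 at 130.6 and chd-1 at 108.2. In C. elegans embryos the EFL-1 and DPL-1 pair is known to hold down the amount of SAS-6. The 6 without a peak were sel-10, fzr-1, let-92, sur-6, sds-22 and gsp-1, which encode phosphatase subunits or regulators and proteolysis factors. At sel-10 replicate 1 held a region with a signal of 96.25, rank 1574 in that list, and neither replicate 2 nor the pooled list had a region.

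For 2 organisers of microtubules away from the centrosome, noca-1 and ptrn-1, no peak was present. The noca-1 window had a pooled signal of 43.15, and ptrn-1 had regions in the replicate lists alone. Counting these 3 lists together, 16 of 27 genes had a promoter peak, against the 14.3% of protein-coding genes. By nearest 5′ end it was 14 of 27, against 10.6%, with mzt-1 and paa-1 dropping out. The lists were written with earlier results known, and hold genes as different as kinases and RNA-binding proteins.

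The kinetochore genes, the likest other set of mitotic genes, are given for their values alone. Of the 10 core kinetochore genes found in the annotation, 8 had a promoter peak, against the 14.3% of protein-coding genes, with a median signal of 287.1 between 113.9 and 1483. The strongest was knl-3 at 1483, followed by kbp-4 at 1147, kbp-3 at 334.8, ndc-80 at 328.6 and knl-1 at 245.7, which encode proteins of the outer kinetochore. The genes without a peak were kbp-2 and kbp-5. The kinetochore signals ranged more widely than those of the 9 centriole and centrosome genes, whose 7 peaks lay within 288.1 and 689.8. At the top of the kinetochore range, the knl-3 and kbp-4 summits lay nearer to other genes, 216 bp from T10B5.3 and 11 bp from rab-18. By nearest 5′ end, knl-1, mis-12, ndc-80 and kbp-3 kept a peak, with signals between 113.9 and 334.8. The members kept by that rule, zyg-1, sas-5, spd-2 and spd-5, lay between 288.1 and 455.1. No test was made between the lists.

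**Figure D5:**
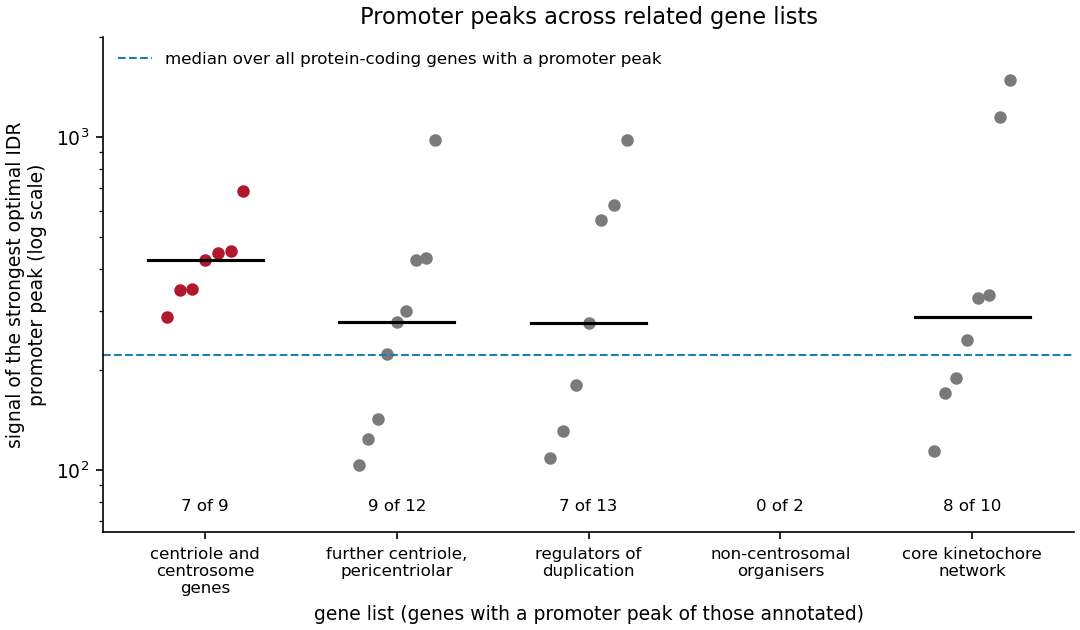
Pooled signal (log scale) of the strongest promoter IDR peak of each gene in 5 gene lists, with the 9 centriole and centrosome genes in red on the left, bars at list medians, and the number of genes with a peak under each list. The dashed line is the median of 221.9 over all protein-coding genes with a promoter peak, and the red points are all above it.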

How the data were processed

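Per the deposited description files, the authors made relaxed lists of regions per replicate and for both replicates pooled, using alignments and a control file, and derived the optimal list from them by an IDR procedure. All use build ce11. Which aligner, peak caller and IDR threshold were used was not given in the sources used here. Every deposited region has a signal value, used as given, a −log10 q value, which had the same maximum in most strong deposited regions and was not used for ranking, and a summit offset, which set the position. Signals were ranked within lists. Read depth is unknown and the control was not analysed here, so no background level in the input can be set beside the peaks.

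Positions are 1-based. Work was done in Python 3.11.15, numpy 2.4.6 and pandas 2.3.3, with plots from matplotlib 3.10.9. Gene positions were those of Ensembl release 115. Peaks and genes share chromosome names, and no peak ran past a chromosome end. Window counts, nearest genes and element searches were tested on simulated data with known answers. Matches on either strand were counted, palindromic ones once, and GCGC lies within TTCGCGC and TTGGCGC. Samples were grouped by the labels, and the replicates are described there as biological, with no statement of separate cultures. No test was run.

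The genes named are the 9 members, every gene with the same summit in its window, the genes next above and below in signal, the same-strand gene upstream of a member without a peak, and, of the other lists, the 5 strongest and those without a peak. Others, such as weaker peaks in those lists, were named after their values were seen. Members, lists and elements were chosen with earlier results of these data known. The listed kinetochore gene dsn-1 matched no annotated name. Alternatives were narrower and wider windows, the 1724 strongest peaks, each replicate left out, the nearest 5′ end, overlap of 1 bp or more, and other element distances.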

Additional observations from a re-analysis of the deposited data

How the results depend on the processing

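The count of centriole and centrosome genes with a promoter peak was 7 of 9, and it was 4 with the narrower window and 4 when a peak counted only for the nearest 5′ end. In the narrower window the summits of sas-4, tbg-1 and spd-5 fell outside, and by nearest 5′ end those of sas-4, sas-6 and tbg-1 went to other genes. It was 8 with a window of 2000 bp before to 500 bp after a 5′ end (17.4% of protein-coding genes), the addition being gip-2, 7 among the 1724 strongest peaks (8.91%) and 7 by overlap of 1 bp or more (14.9%). Leaving out replicate 1 or replicate 2, with the 3449 strongest regions of the other as the peaks, gave 7 and 7 (14.4% and 13.8%). In the same leave-one-out settings the other centrosome lists gave 15 to 16 of 27, the kinetochore list 7 to 8 of 10, the median rank of the bound genes 489 to 637 (497 in the pooled list), the count with a CHR or E2F element 3 to 4 of 7 and the median summit position -97 and -97 bp (-99 in the pooled list). By nearest 5′ end the kinetochore count was 4 of 10, against 10.6% of protein-coding genes. Within 25 bp of the summit the element count was 2 of 7 (28.6%), against 23.7% of IDR peaks in promoter windows. In the narrower window the strongest region left had a pooled rank of 14169 at sas-4, 8412 at spd-5 and 5161 at tbg-1, against 213, 497 and 686 in the standard window, and in the wider window that of gip-2 had rank 974, against 29022. No paired analysis was possible because there is 1 group. With 2 replicates and no read counts, the precision of a signal value is unknown, and a weak region such as those at gip-1 and gip-2 cannot be told apart from background.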

Other observations

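Among the genes that act with γ-tubulin, none had an IDR peak whose nearest 5′ end was its own. The tbg-1 peak was nearest to rpac-19. The mzt-1 gene, which encodes a small partner of the complex, had 2 peaks in its window, and neither had mzt-1 as its nearest 5′ end. The stronger peak, with a pooled signal of 222.4, had its summit 517 bp upstream of mzt-1 and 391 bp from enu-3.3. Its signal was 88.61 in replicate 1 and 132.3 in replicate 2. The gip-2 gene had its closest peak before lipt-1, and gip-1 had none. This grouping was made after the values were seen and was not tested.

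The sas-6 peak, which had no CHR or E2F element within 100 bp, held the letters GCGC at 16.5, 18.5 and 43.5 bp from its summit towards the gene. A search for GCGC, chosen after the data were seen, found it within 25 bp of the summit at 5 of the 7 bound genes (71.4%): zyg-1, sas-5, sas-6, spd-2 and spd-5. The share was 41.6% of IDR peaks in promoter windows, 35.0% of all IDR peaks and 8.78% of pooled regions that overlapped no IDR peak. Within 50 bp, the distance used for the other elements, the count was again 5 of 7, against 58.0% of IDR peaks in promoter windows, and within 100 bp it was 6 of 7, against 67.9%. The gaps at 50 and 100 bp are about the share of a single peak, while that at 25 bp is wider. The element was chosen after the data were seen, so no difference is read from any of them. The sas-4 and tbg-1 peaks, whose summits were nearest to another gene on the same strand, had none within 50 bp. GCGC forms the end of 2 of the E2F elements searched, as at spd-2, where the matches overlap, and GCGC-rich sequence also goes with base composition, which was not matched here.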
